A study of Mus musculus with 2 samples.

Results

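The 8 genes described here, *H2-K1*, *H2-D1*, *B2m*, *Tap1*, *Tap2*, *Tapbp*, *Nlrc5* and *Erap1*, carry peptides of the cell's own proteins to its surface on major histocompatibility complex (MHC) class I molecules. They were chosen by name, and all 8 were found among the 20250 named protein-coding genes of the RNA-seq table, with 10 of its 26968 protein-coding RefSeq transcripts. The table holds 1 library of *Ebf1* -/- pre-pro-B cells, which stem from female fetal liver and were grown with Il-7 (5 ng/mL), Scf (10 ng/mL) and Flt3l (10 ng/mL). It holds 1 library of *Rag2* -/- pro-B cells, which stem from male adult bone marrow and were grown with Il-7 (5 ng/mL) alone. Both cultures have the C57BL/6 strain background and were kept on OP-9 stromal cells, a mouse bone marrow stromal line. Their deletions hold them at consecutive stages of B cell development, and the comparison asks how steady state mRNA differs between those stages. Cell type cannot be told apart from genotype, sex, age, tissue of origin or cytokines in this design, and no difference has a replicate check.

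A class I molecule is a heavy chain (in the mouse the classical ones are H2-K and H2-D) paired with beta-2-microglobulin. Peptides cut by the proteasome enter the endoplasmic reticulum through the TAP transporter, are trimmed by the aminopeptidase Erap1 and are loaded with the help of tapasin, the product of *Tapbp*. Nlrc5 is the transactivator of class I genes and acts with factors bound at the conserved X and Y boxes of their promoters, next to elements for interferon regulatory factors and NF-kB.

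The libraries were depleted of ribosomal RNA, strand-specific and sequenced to a nominal 90000000 single-end reads of 97 bases each. Levels are given as FPKM, the fragments per kilobase of transcript after scaling to library size, which the authors estimated per RefSeq transcript with Cuffdiff. They were summed per gene here, so that levels of different genes are per length. Genes above 0 numbered 13540 in the pre-pro-B library and 12931 in the pro-B library. The progenitor markers *Kit*, *Flt3* and *Cd34* summed to an FPKM of 944 in the pre-pro-B library and of 2.82 in the pro-B library, and 9 B lineage markers summed to 128 and 2260. The deleted genes were not at 0 in their own null cells, since *Ebf1* had an FPKM of 64.0 in the library labelled *Ebf1* -/- (273 in the other) and *Rag2* had one of 22.9 in the library labelled *Rag2* -/- (34.5 in the other). An FPKM covers a whole transcript and does not show which exons the reads came from.

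The promoters of the classical heavy chains and of *B2m* are shown because Nlrc5, measured here as well, acts through such sequences. RefSeq promoters of build GRCm38.p6 were at hand for 6 of the 8 genes (not for *Tap2* and *Nlrc5*), each from 250 bases before to 50 bases after a transcription start. They were searched on both strands for the X2 box core TGACGC, the Y box ATTGG, which on the other strand reads CCAAT, the core TTTCNNTTC of the interferon-stimulated response element (ISRE) and the kB core GGGATTCCC. A longer ISRE, in which 2 stretches of GAAA stand 2 bases apart, was added after the sequences had been seen. The 200 bases before the start are printed for *H2-K1* (chr17:34000334-34000533, minus strand), *H2-D1* (chr17:35262894-35263093, plus strand) and *B2m* (chr2:122147487-122147686, plus strand), with every match in capitals.
H2-K1: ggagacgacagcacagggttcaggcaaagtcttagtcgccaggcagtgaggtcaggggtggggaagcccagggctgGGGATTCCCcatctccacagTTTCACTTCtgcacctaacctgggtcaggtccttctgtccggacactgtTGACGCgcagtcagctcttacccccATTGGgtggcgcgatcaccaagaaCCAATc
H2-D1: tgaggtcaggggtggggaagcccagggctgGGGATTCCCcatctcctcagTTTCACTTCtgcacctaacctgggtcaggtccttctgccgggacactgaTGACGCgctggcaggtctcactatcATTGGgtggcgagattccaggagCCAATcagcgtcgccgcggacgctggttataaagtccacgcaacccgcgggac
B2m: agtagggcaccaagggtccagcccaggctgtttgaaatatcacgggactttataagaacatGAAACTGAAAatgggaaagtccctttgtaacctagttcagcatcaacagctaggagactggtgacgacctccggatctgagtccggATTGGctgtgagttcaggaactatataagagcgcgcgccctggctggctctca

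*H2-K1* and *H2-D1* held the 4 motifs in the same order and at the same distances. From the start of the kB core it was 20 bases to the ISRE core, from there 49 bases to the X2 box and from there 25 bases to the Y box. The whole array began 124 bases before the start of *H2-K1* and 170 bases before that of *H2-D1*, a shift of 46 bases. RefSeq gives *H2-K1* a second start, from which the array began 110 bases before. Over the 99 bases from the kB core to the end of the Y box, 88 were identical between the genes (88.9%). With the shift of 46 bases and no gaps, 180 of 254 bases (70.9%) were identical over the promoters set side by side. A second Y box match, on the other strand, lay 6 bases before the first start of *H2-K1* and 53 bases before that of *H2-D1*. It was not at the same shift, so bases beyond it were compared out of step. The lower share therefore does not show that the bases outside the array are less alike. A match is a description of letters and not a measured binding site.

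Among all 32851 promoters of the table, 7.40% held the X2 core, 37.4% the Y box, 7.52% the ISRE core, 0.353% the kB core and 2.65% both the X2 core and the Y box. Of the 6 genes, *H2-K1* and *H2-D1* alone held exact matches to the X2, ISRE and kB cores. The letters searched were those described for class I promoters, and variants of them were not counted. *B2m* and *Tap1*, for instance, hold TGACGA, which differs from the X2 core in its last letter. A missing match therefore does not show that a gene lacks the element. The Y box was also in the promoters of *B2m* (53 bases before the start), *Tapbp* and *Tap1*, where the match nearest the start lay 165 and 222 bases before it. The longer ISRE was in 3.44% of all promoters and in those of *B2m*, 139 bases before the start, and *Erap1*, where it lay across the start. In *Erap1* none of the other 4 motifs was found.

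**Figure D1:**
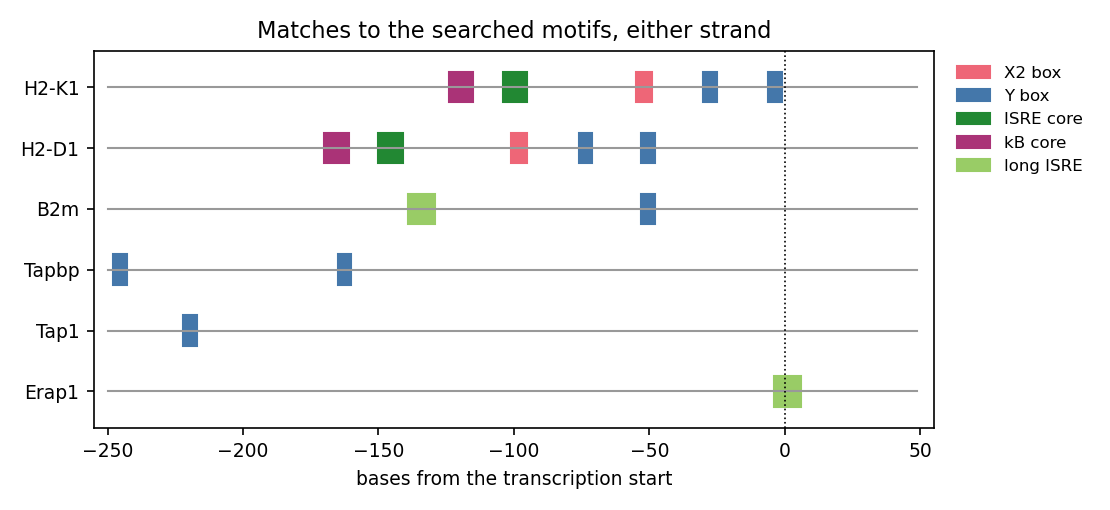
Matches to the searched motifs in the promoters of 6 class I presentation genes, by distance in bases from the transcription start (dotted line, 0). Each horizontal line is 1 promoter window and each coloured block 1 match on either strand. The kB, ISRE, X2 and first Y blocks of *H2-K1* and *H2-D1* share their order and spacing, with a shift of 46 bases. The second Y block, nearest the start, is not at that shift (6 and 53 bases before the start).

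For most of the 8 genes, the level in one library was within 2-fold of that in the other. At 2-fold, 0 of 8 were higher in the pro-B library, where 17.2% of the 12076 genes above 0 in both libraries were, and 2 of 8 (*Tap2* and *Erap1*) were lower, where 22.1% of those genes were. The other 6 genes lay inside that limit. Over 8 genes, such counts are no result particular to them. The median log2 ratio of FPKM (pro-B over pre-pro-B) was 0.31 over the 8 genes and -0.12 over all genes, whose middle 50% ran from -0.85 to 0.58. By direction alone, *B2m*, both heavy chains and *Nlrc5* had more FPKM in the pro-B library, *Tap2*, *Erap1* and *Tapbp* less, and *Tap1* differed least.

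Cuffdiff gives each transcript a 95% interval from its own model of both libraries, which is not an error between replicates. For the 8 genes these intervals were wide, from 1.52 to 2.86 times the FPKM in transcripts above 0 in both libraries, and those of pre-pro-B and pro-B cells overlapped for every transcript of theirs. Over all protein-coding transcripts above 0 in both libraries, 3.14% (474 of 15073) had intervals that did not overlap. Counting error was small beside them. At the nominal depth *Nlrc5*, the gene lowest in FPKM, rested on about 4172 fragments in the pre-pro-B library and 7090 in the pro-B library. Among transcripts above 0 in both libraries, *Tapbp* NM_009318 rested on the fewest, about 1571 in the pro-B library.

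**Figure D2:**
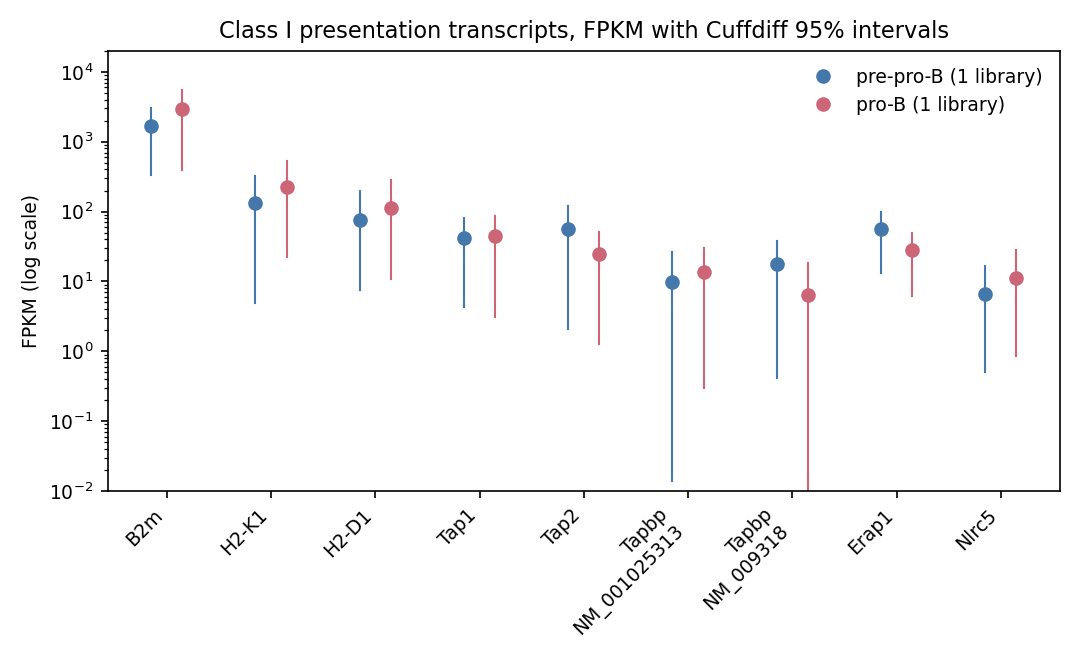
FPKM of the 9 transcripts of the 8 genes that were above 0 in both libraries (log axis), in the pre-pro-B library (blue) and pro-B cells (red). Points are the FPKM of 1 library each and lines Cuffdiff's 95% intervals, which overlap for every transcript; the lower limit of *Tapbp* NM_009318 in the pro-B library is 0 and runs off the axis.

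*B2m* (NM_009735, mm9 chromosome 2, 121973422 to 121978819, plus strand), the light chain shared by all class I molecules, had the highest level of the 8 genes in both libraries. Its FPKM was 1687 (interval 335 to 3038) in the pre-pro-B library and 2969 (interval 397 to 5522) in the pro-B library, 1.76-fold higher (log2 ratio 0.82). It ranked 5 among all genes in the pre-pro-B library and 3 in the pro-B library. The genes nearest to it in level over both libraries, among 8852 with an FPKM of at least 1 in each, were *Rps21* (distance 0.83 on the log2 scale), *Rpl4* (0.90) and *H2bc18* (1.20). *Rps21* and *Rpl4* encode ribosomal proteins and *H2bc18* a histone H2B.

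*H2-K1* (NM_001001892, mm9 chromosome 17, 34132962 to 34137278, minus strand) encodes the H2-K heavy chain and came next in level. Its FPKM was 133 (interval 4.87 to 319) in the pre-pro-B library and 224 (interval 22.2 to 530) in the pro-B library, a ratio of 1.69-fold (log2 0.75). *H2-D1* (NM_010380, mm9 chromosome 17, 35399675 to 35404444, plus strand) encodes the H2-D heavy chain and followed with 76.4 (interval 7.60 to 194) and 113 (interval 10.7 to 287), a ratio of 1.48-fold (log2 0.56). The order *B2m*, *H2-K1*, *H2-D1* was the same in both libraries, while the intervals of the 2 heavy chains overlapped within each library.

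The ratio of *B2m* to heavy chain FPKM was nearly the same in both libraries. With 1 library per cell type and wide Cuffdiff intervals, such equal ratios describe a single pair of values. There was 8.07 times as much *B2m* FPKM as that of *H2-K1* and *H2-D1* together in the pre-pro-B library and 8.82 times as much in the pro-B library. Set against all class I heavy chains that were listed and measured, the ratio was 5.85 and 5.91. *H2-K1* stood at 1.74 times the level of *H2-D1* in the pre-pro-B library and at 1.98 times in the pro-B library.

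*Nlrc5* (NM_001033207, mm9 chromosome 8, 96996663 to 97051172, plus strand) had the lowest level of the 8 genes in both libraries. Its FPKM was 6.67 (interval 0.501 to 16.6) in the pre-pro-B library and 11.3 (interval 0.870 to 27.8) in the pro-B library, 1.70-fold higher (log2 ratio 0.77). This placed it at percentile 46.7 and 58.6 of the genes above 0, while *B2m* and both heavy chains lay in the top 10% of them. The ratio of *H2-K1* to *Nlrc5* FPKM was 19.9 in the pre-pro-B library and 19.7 in the pro-B library, and that of *B2m* to *Nlrc5* 253 and 262. With 2 libraries such equal ratios are a description of a single pair of values. The genes with the most similar pair of levels were *Med18* and *Gdpd1* (both at a distance of 0.06 on the log2 scale) and *Stx8* (0.07).

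The TAP transporter is a dimer of the products of *Tap1* and *Tap2*, of which *Tap1* was nearly equal in both libraries and *Tap2* lower in the pro-B library. *Tap1* (mm9 chromosome 17, 34324498 to 34334170, plus strand) had an FPKM of 42.5 in the pre-pro-B library and of 44.1 in the pro-B library (log2 ratio 0.05), nearly all of it from NM_013683 (intervals 4.28 to 81.2 and 3.07 to 85.3). Its other transcript, NM_001161730, was listed at 0 in the pre-pro-B library and at 0.00248 in the pro-B library, which is below the FPKM of 3 fragments. *Tap2* (NM_011530, mm9 chromosome 17, 34340472 to 34353266, plus strand) had an FPKM of 57.0 (interval 2.08 to 119) in the pre-pro-B library and of 24.7 (interval 1.25 to 50.9) in the pro-B library, 2.31-fold lower (log2 ratio -1.21). The FPKM of *Tap1* was thus 0.746 times that of *Tap2* in the pre-pro-B library and 1.79 times in the pro-B library.

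*Tap1* and *Tap2* stand in a row with 2 genes of the immunoproteasome, the form of the proteasome tied to class I peptides. In the order of their positions, *Psmb9* (mm9 chromosome 17, from 34318932, minus strand), *Tap1*, *Psmb8* (34334666 to 34338399, plus strand) and *Tap2* had log2 ratios of 0.14, 0.05, -0.25 and -1.21. *Psmb9* and *Tap1* lie head to head and overlap in the annotation, on opposite strands. Their FPKM kept a ratio of 1.26 in the pre-pro-B library and 1.35 in the pro-B library. Of the 4 genes, *Tap2* was the one that differed by more than 2-fold.

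*Tapbp* (mm9 chromosome 17, 34052844 to 34066235, plus strand) encodes tapasin, which holds the empty class I molecule at the transporter. Its FPKM was 27.3 in the pre-pro-B library and 19.9 in the pro-B library, 1.37-fold lower (log2 ratio -0.46). The 2 transcripts behind the sum went opposite ways. NM_009318 had an FPKM of 17.6 (interval 0.413 to 38.2) in the pre-pro-B library and of 6.35 (interval 0 to 18.1) in the pro-B library, and its share of the gene was 64.5% and 31.9%. NM_001025313 had 9.70 (interval 0.0138 to 26.2) and 13.6 (interval 0.303 to 29.9), with a share of 35.5% and 68.1%. The transcripts are 2747 and 2750 bases long, their intervals overlapped in both libraries, and how reads common to both were divided between them was not tested.

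*Erap1* (NM_030711, mm9 chromosome 13, 74777320 to 74829983, plus strand), the aminopeptidase that trims peptides to the length class I molecules hold, had an FPKM of 55.6 (interval 13.2 to 97.5) in the pre-pro-B library and of 27.8 (interval 6.21 to 49.3) in the pro-B library. The difference was 2.00-fold and lay just past the 2-fold limit, so that scaling pro-B values by the median ratio over genes, or adding a pseudocount of 0.1, took it back inside. *Lnpep*, a related aminopeptidase, had an FPKM of 93.1 and 90.9 in the same order. *Erap1* therefore stood at 0.597 times the level of *Lnpep* in the pre-pro-B library and at 0.305 times in the pro-B library.

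From high to low, the genes in the pre-pro-B library were *B2m*, *H2-K1*, *H2-D1*, *Tap2*, *Erap1*, *Tap1*, *Tapbp* and *Nlrc5*. In pro-B cells *Tap1* and *Tap2* had exchanged places and the rest of the order was unchanged. The highest and the lowest gene were 253-fold apart in the pre-pro-B library and 262-fold apart in the pro-B library. In each library *B2m* stood clear of all others, with its lower limit above the upper limit of every gene but *H2-K1* in the pro-B library. The intervals of *H2-K1*, *H2-D1*, *Tap1*, *Tap2*, *Erap1* and *Nlrc5* overlapped one another in both libraries. Those of *Tapbp* NM_001025313 overlapped all of these as well, so the order below *B2m* is not firm.

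The other class I heavy chains of the mouse, the Q, T and M genes, were more divided than *H2-K1* and *H2-D1*. Of 25 with a transcript in the table, 10 were listed at 0 in both libraries and 8 were above 0 in both, of which 4 were higher and 2 lower in the pro-B library at 2-fold, beside 17.2% and 22.1% of all genes. With an FPKM of at least 1 required in both libraries, 1 remained higher, *H2-Q4*, since the others were below 1 in the pre-pro-B library. Their summed FPKM was 79.4 in the pre-pro-B library and 166 in the pro-B library. Together with *H2-K1* and *H2-D1* this made 288 and 503, of which those 2 genes gave 72.5% and 66.9%.

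The Q genes gave 2.58% of the heavy chain FPKM in the pre-pro-B library and 23.6% in the pro-B library. *H2-Q4* had an FPKM of 6.59 in the pre-pro-B library and of 55.8 in the pro-B library (8.46-fold), with overlapping Cuffdiff intervals (0.176 to 17.9 and 2.56 to 126). *H2-Q7*, which encodes a Qa-2 antigen, had 0.522 and 34.8 (66.6-fold), and *H2-Q8* had 0.313 and 27.9 (89.0-fold). For *H2-Q8* and the most abundant *H2-Q7* transcript the intervals did not overlap, as for 3.14% of all protein-coding transcripts above 0 in both libraries. The transcript named *H2-Q8* was placed by the authors' table at 35561791 to 35565306 on mm9 chromosome 17, away from the *H2-Q8* of the mm9 annotation (35531071 to 35534971), so which gene of this cluster it measures is uncertain. The fourth heavy chain counted as higher, *H2-Q9*, was below an FPKM of 1 in both libraries.

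Among the T and M genes, *H2-T23*, which encodes Qa-1, a ligand of the natural killer cell receptors of the CD94 and NKG2 type, had an FPKM of 44.5 in the pre-pro-B library and of 13.4 in the pro-B library (3.32-fold lower). Its Cuffdiff intervals overlapped (1.23 to 94.9 and 0.0978 to 32.5), and its share of the heavy chain FPKM was 15.4% and 2.67%. *H2-T24* had 8.31 and 2.53, also lower by more than 2-fold and with overlapping intervals. *H2-T22* (6.71 and 12.6) and *H2-M3* (12.4 and 19.2), which presents formylated peptides of bacteria and mitochondria, stayed within 2-fold.

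**Figure D3:**
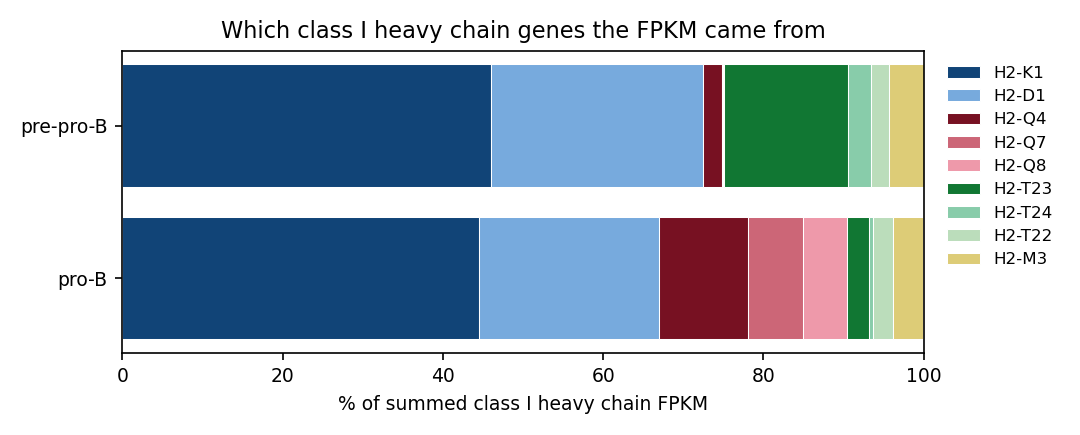
Share of the summed class I heavy chain FPKM that each gene gave, in percent. Sums are over the listed heavy chains, 288 FPKM in the pre-pro-B library (upper bar) and 503 FPKM in pro-B cells (lower bar). The shares of *H2-K1* and *H2-D1* (blues) are similar, those of the Q genes (reds) are larger in the pro-B library and that of *H2-T23* (dark green) is larger in the pre-pro-B library.

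Class I heavy chain genes resemble each other, and reads that match several of them were divided by the authors' software. In the mm9 transcripts, 0% of the 97-base stretches of *H2-K1* and 4.79% of those of *H2-D1* (96 of 2006) occurred exactly in a transcript of another gene. At 50 bases, the shares were 8.87% and 14.3%. For *B2m*, *Tap1*, *Tap2*, *Tapbp* and *Erap1* it was 0% at 97 bases, and *Nlrc5* is not among the protein-coding transcripts of that annotation. For *H2-Q7* it was 12.8%, for *H2-T22* 14.3%, for *H2-T23* 4.65% and for *H2-Q4* 1.30%. The share of *H2-Q8* was not assessed. How far the division of shared reads moved any of these levels was not tested.

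Other genes of the pathway were counted in 6 lists, in which 9 of 61 genes above 0 in both libraries (14.8%) were higher and 12 (19.7%) lower in the pro-B library at 2-fold, beside 17.2% and 22.1% of all genes. In the list of peptide loading and folding, 0 of 9 were higher and 1 was lower, *Tapbpl*, a relative of tapasin, with an FPKM of 5.01 and 1.86. Calreticulin (*Calr*) had 167 and 103, calnexin (*Canx*) 213 and 136, and *Pdia3*, the partner of tapasin in the loading complex, 44.6 and 43.0. The median log2 ratio of the list was -0.43.

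In the list of peptide supply, 2 of 15 genes were higher and 0 lower, beside 17.2% and 22.1% of all genes. The higher ones were *Psmb7*, with 126 in the pre-pro-B library and 253 in the pro-B library, and *Nrd1*, with 21.6 and 51.1. Both had Cuffdiff intervals that overlapped between the libraries. *Psmb7* lay just past 2-fold, and rescaling to TPM left 1 gene of the list higher. The immunoproteasome subunits lay within 2-fold, with an FPKM of 162 and 136 for *Psmb8*, 53.8 and 59.5 for *Psmb9*, and 16.1 and 15.1 for *Psmb10*. Against the constitutive subunit that each replaces, *Psmb8* stood at 9.75 times the FPKM of *Psmb5* in the pre-pro-B library and 11.6 times in the pro-B library, and *Psmb9* at 0.755 and 0.644 times that of *Psmb6*. *Psmb10* stood at 0.128 and 0.0594 times the FPKM of *Psmb7*.

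Among 14 transcriptional regulators of class I genes, 1 was higher and 4 lower in the pro-B library at 2-fold, beside 17.2% and 22.1% of all genes. The Cuffdiff intervals of the higher and lower ones overlapped between the libraries. The higher one was *Nfyb*, a subunit of the factor that binds the Y box, with an FPKM of 43.5 in the pre-pro-B library and of 126 in the pro-B library. *Rfx5*, which binds the X box and works with Nlrc5, had 9.27 and 16.0. The lower ones were *Irf1* (30.0 and 9.54), *Irf8* (66.9 and 27.0), *Nfkb1* (48.6 and 13.0) and *Ciita*, the class II counterpart of *Nlrc5*, which was below 1 in both libraries.

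In the list of interferon receptors and signaling, 0 of 10 genes were higher and 4 lower in the pro-B library at 2-fold. Of all genes, 17.2% were higher and 22.1% lower. Among the lower ones of the list were *Ifnar2* with an FPKM of 146 in the pre-pro-B library and of 24.4 in the pro-B library, *Irf9* with 45.7 and 9.33, and *Ifnar1* with 33.3 and 12.8. The Cuffdiff intervals of these named genes overlapped between the libraries. The subunits of the interferon gamma receptor lay within 2-fold, at 54.2 and 40.5 for *Ifngr1* and at 11.9 and 22.1 for *Ifngr2*. The median log2 ratio of the list was -0.58, while that of the 8 presentation genes was 0.31.

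**Figure D4:**
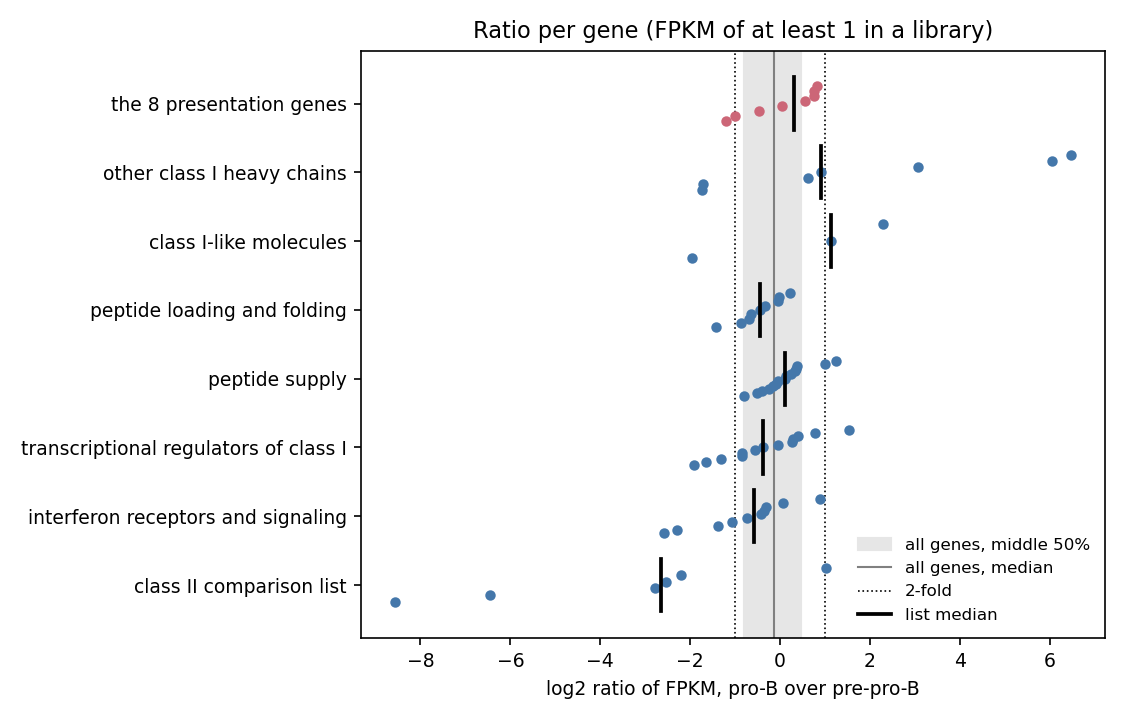
Log2 ratio of FPKM (pro-B over pre-pro-B) for each gene above 0 in both libraries that reached an FPKM of 1 in either, by list; the 8 presentation genes are red and short black lines are list medians. The grey band and line are the middle 50% and the median of all genes under the same filter, and dotted lines mark 2-fold. The presentation genes lie between -1.21 and 0.82, and genes of other lists reach farther on both sides.

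Markers of other cell types also differed between the libraries. For comparison, 17.2% of all genes were higher and 22.1% lower in the pro-B library at 2-fold. Of 5 dendritic markers 3 were lower in the pro-B library at 2-fold and 2 were listed at 0 there. Their summed FPKM was 366 and 1.45, of which *Flt3*, also a progenitor marker, gave 303 in the pre-pro-B library, and *Siglech*, a marker of plasmacytoid dendritic cells, had 54.3 and 0.236. Of 5 myeloid markers 2 were lower in the pro-B library and *Elane* was listed at 0 in both libraries, with sums of 61.0 and 6.52. Of 5 T lineage markers 3 were lower in the pro-B library and 2 were listed at 0 there, with sums of 76.5 and 3.13. Of 8 stromal markers 5 were higher and 1 lower in the pro-B library, and *Dcn* was listed at 0 in both libraries. The stromal sums of 18.0 and 8.68 were carried by the one lower marker, *Pdgfrb* (15.9 and 0.377), while *Cxcl12* had 0.618 and 2.92 and *Col1a2* had 0.707 and 2.82. The part of such cells in the levels of *Tap2*, *Erap1*, *H2-T23* and the interferon genes was not tested, and fewer cells of a type cannot be told apart from less RNA per cell in bulk libraries.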

How the data were processed

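The authors trimmed the reads, aligned them to mm9 with TopHat (version 1.5 in the submitters' processing notes, which differs from the release in the study's parameter list) and ran Cuffdiff 2.1.1 on RefSeq genes with multi-read correction. The deposited FPKM carry no counts, so fragments were approximated from transcript length and the nominal 90000000 reads per library. Transcript lengths were taken as deposited by the authors. A further deposited table holds the authors' fold changes, p-values and q-values and was not used, nor were 2 per-sample columns in it.

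Of 30485 transcripts, the 26968 with an NM_ accession were used. A RefSeq table of GRCm38.p6 gave names (413 transcripts had none) and promoters, and GENCODE M1 gave mm9 positions and transcripts. FPKM were summed per gene and compared as log2(pro-B/pre-pro-B) without a pseudocount, in genes above 0 in both libraries. No test is possible with 1 library per group. All 8 genes are named, and list genes reaching an FPKM of 1 in a library could be, of which 1 is not reported here by name. For *B2m* and *Nlrc5*, the 3 genes with the smallest Euclidean distance in log2 FPKM are given. The genes and lists were chosen with earlier results of these data known. Python 3.11.15, numpy 2.4.6, pandas 2.3.3 and matplotlib 3.10.9 were used, and the scripts were tested on simulated data. Alternatives were other pseudocounts, scalings, filters, transcript choices and fold limits.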

Additional observations from a re-analysis of the deposited data

How the results depend on the processing

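The directions of *B2m*, *H2-K1*, *H2-D1*, *Nlrc5*, *Tap2*, *Tapbp* and *Erap1* were the same under all alternatives tried. Most alternatives could not have changed them, so this is no evidence that the directions are firm. A pseudocount or fold limit leaves the sign of a ratio as it is. TPM and median-ratio scaling shift every log2 ratio alike, by -0.12 and 0.09. *Tap1* alone changed sign, to a log2 ratio of -0.07 when FPKM were rescaled to TPM, which lowers every log2 ratio by 0.12. The log2 ratio of *B2m* ran from 0.70 to 0.91, that of *Nlrc5* from 0.64 to 0.85, that of *Tap2* from -1.33 to -1.12 and that of *Erap1* from -1.12 to -0.91. *Tapbp* ran from -1.47 to -0.37. The lowest value came from taking only NM_009318, the transcript with the higher mean FPKM over both libraries, which also made 3 presentation genes lower at 2-fold. The other transcript of *Tapbp*, the more abundant one in the pro-B library, had a log2 ratio of 0.48. The number of presentation genes lower at 2-fold was 1 instead of 2, with *Erap1* inside the limit, under a pseudocount of 0.1, a pseudocount of 1 and median-ratio scaling. A limit of 1.5-fold gave 3 presentation genes higher, *B2m*, *H2-K1* and *Nlrc5*, and 2 lower. Of the 61 pathway genes it gave 13 higher and 19 lower, and of all 12076 genes 2981 higher and 3836 lower. A limit of 4-fold gave 0 presentation genes lower, 5 pathway genes higher and 2 lower, and 983 of all genes higher and 1470 lower. Of all genes, 1243 were higher with a pseudocount of 1. With an FPKM of at least 1 in both libraries, 1047 were higher and 1211 lower, among fewer genes compared. Of 140 counts for single lists under the alternatives, 20 differed from the reported count by more than 1.5-fold. No paired analysis was possible because each cell type has 1 library. The Cuffdiff intervals are wide, there are no replicates, and some class I heavy chains share sequence.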

Other observations

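Class I-like molecules, which resemble class I heavy chains but present no classical peptides, were few and went both ways. *Mr1*, which presents vitamin B metabolites to mucosal-associated invariant T cells, had an FPKM of 6.00 in the pre-pro-B library and of 29.4 in the pro-B library (4.90-fold). *Cd1d1*, which presents lipids to natural killer T cells, had 6.76 and 14.8 (2.19-fold). *Fcgrt*, the neonatal Fc receptor, had 1.68 and 0.436. The Cuffdiff intervals of these genes overlapped between the libraries. At 2-fold, 2 of the 5 genes above 0 in both libraries were higher and 1 was lower in the pro-B library, beside 17.2% and 22.1% of all genes. The lower one, *Fcgrt*, was not called under a pseudocount of 1. *Hfe* and *Procr* were below 1 in both libraries.

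The MHC class II genes, listed for comparison, were mostly lower in the pro-B library, where *B2m*, *H2-K1* and *H2-D1* were within 2-fold. Of 9 genes, 1 was higher, 5 were lower and 3 were listed at 0 there (*H2-Aa*, *H2-Eb1* and *H2-DMb2*), beside 17.2% of all genes higher and 22.1% lower. The invariant chain *Cd74* had an FPKM of 50.2 in the pre-pro-B library and of 0.133 in the pro-B library, *H2-Ob* had 102 and 14.9, and *H2-DMa* had 19.7 and 0.224. The one higher was *H2-Ab1*, with 4.30 and 8.74, which fell back inside 2-fold under TPM and under a pseudocount of 1. The summed FPKM of dendritic and myeloid markers, some of whose cells carry class II, was also lower in the pro-B library. The sums were 366 and 1.45 for dendritic and 61.0 and 6.52 for myeloid markers. In the pre-pro-B library *Flt3*, also a progenitor marker, gave 303 of the 366 and *Mpo* 35.7 of the 61.0. The dendritic markers *Zbtb46* and *Xcr1* were below 1 in both libraries. The part of such cells in these differences was not tested.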
